A study of Mus musculus with 9 samples.

Results

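Processed pseudogenes are copies of spliced messenger RNAs that were reverse transcribed and inserted elsewhere in the genome. The 258 copies described here were chosen by their summed counts: of the 10002 genes that the deposited table of 55401 genes types as processed pseudogenes, each had at least 450 counts over the 9 libraries and at least 1 count over the control libraries. The summed counts therefore describe the choice and carry no test, and ranged from 453 to 41794 with a median of 1114.5. The libraries came from primary neonatal mouse ventricular myocytes (NMVMs), heart muscle cells of wild-type C57BL/6J pups aged 1 day, grown in DMEM with 10% FBS. The 3 control cultures stayed in normal oxygen and complete medium. The 3 hypoxia cultures were moved to DMEM that held neither glucose nor serum and were kept for 6 h in a sealed AnaeroPack chamber, and the 3 hypoxia + rSRGN cultures had recombinant serglycin added during the same hours. Oxygen, glucose and serum changed together, so their parts in a difference from control cannot be told apart.

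A processed pseudogene carries no introns and usually no promoter of its parent gene, and most have collected mutations that break the reading frame. Genes with abundant messenger RNA in the germ line, such as those of ribosomal proteins and of Gapdh, left the most copies. Short reads of a recent copy are hard to tell from those of its parent, so a count on a copy can hold fragments of the parent and the reverse.

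A parent was found for 257 of the 258 pseudogenes by aligning them to the protein-coding transcripts of GENCODE release 21 (GRCm38), and these were copies of 201 distinct genes. The median identity to the parent was 99.37%, with 46 copies free of mismatches and 87 with 1 to 3 mismatches. Of the 257, 244 lay on another chromosome than the parent, and 109 spanned the whole coding sequence with a start codon and no premature stop or frameshift. Most were intergenic (164), while 46 lay in an intron of a gene on the opposite strand, 38 in an intron on the same strand and 10 over an exon of another gene. The alignment was ambiguous for 15 copies, for which a second gene scored within 1% of the first.

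The sequences below show how little separates some copies from their parents, and how far others had moved from them. They were read from the GENCODE transcripts (GRCm38) and are written 5′ to 3′ along the parent's coding sequence, and capitals mark the bases that differ between copy and parent. The first pair is Gm13394, the most counted member, over chr2:28934235-28934294 (minus strand), whose alignment to Gapdh holds a single substitution, A346C, counted from the first base of the parent's start codon.
Gapdh: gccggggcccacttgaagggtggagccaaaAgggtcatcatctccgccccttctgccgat
Gm13394: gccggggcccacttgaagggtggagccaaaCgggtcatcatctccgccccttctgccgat
Gm2606, another Gapdh copy, is shown over chr15:12575441-12575500 (plus strand) with its single substitution, C583T, because it had the largest called fall in hypoxia.
Gapdh: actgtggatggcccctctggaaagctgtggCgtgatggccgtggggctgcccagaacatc
Gm2606: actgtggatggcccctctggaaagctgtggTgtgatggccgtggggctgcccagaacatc
Gm9794, a copy of the ribosomal protein gene Rpl23 at chr6:66875462-66875521 (minus strand), differs by C253T, which places a stop codon in the frame.
Rpl23: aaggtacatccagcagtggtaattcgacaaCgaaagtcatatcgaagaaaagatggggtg
Gm9794: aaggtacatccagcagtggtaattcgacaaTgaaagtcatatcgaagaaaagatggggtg
Gm5345 is an older Gapdh copy with 76 mismatches, shown over chr8:40853867-40853986 (minus strand). It rose where Gapdh did not, which is a description with no test.
Gapdh: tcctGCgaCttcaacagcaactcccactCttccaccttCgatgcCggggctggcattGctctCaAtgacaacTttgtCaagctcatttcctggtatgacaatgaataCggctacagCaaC
Gm5345: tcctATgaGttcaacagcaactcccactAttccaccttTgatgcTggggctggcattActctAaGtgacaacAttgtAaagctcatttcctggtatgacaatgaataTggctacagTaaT
Gm5566, a copy of Nme2 with 13 mismatches, is shown over chr5:149661099-149661218 (minus strand) because it was nearly absent from the control libraries.
Nme2: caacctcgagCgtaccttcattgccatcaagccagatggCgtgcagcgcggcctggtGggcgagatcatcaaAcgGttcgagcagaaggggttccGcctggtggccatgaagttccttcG
Gm5566: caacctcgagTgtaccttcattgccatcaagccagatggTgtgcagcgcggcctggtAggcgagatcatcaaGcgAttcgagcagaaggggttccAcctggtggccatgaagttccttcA
Gm6548, a copy of Eef1a1 with 36 mismatches, is shown over chr17:78850884-78851003 (minus strand) because it had the largest called fall in its ratio to the parent.
Eef1a1: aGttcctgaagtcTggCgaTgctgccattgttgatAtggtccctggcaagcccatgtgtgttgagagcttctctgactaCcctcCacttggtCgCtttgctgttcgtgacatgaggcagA
Gm6548: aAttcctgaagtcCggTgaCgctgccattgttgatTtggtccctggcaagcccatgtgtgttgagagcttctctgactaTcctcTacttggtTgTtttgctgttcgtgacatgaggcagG

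The libraries held 16583985 to 22781557 counts, with the control libraries the deepest, and pairs of libraries of a group differed by 3.63 to 13.1 chi-square units per degree of freedom, well beyond sampling noise. No label says whether the 3 libraries of a group came from separate preparations, so p-values measure the spread between these libraries. The cell type label was checked with marker lists. The summed level of 10 cardiomyocyte genes was 43000 to 53400 CPM (counts relative to the library size after TMM scaling, on the usual CPM scale) in control, 3580 to 5380 in hypoxia and 6870 to 7300 in hypoxia + rSRGN, and all 10 were called lower in hypoxia than in control. Of 8 fibroblast genes 7 were called higher in hypoxia (10200 to 11900 CPM in control, 22200 to 25100 in hypoxia), and the 7 tested of 8 macrophage genes were called lower (225 to 240 CPM against 24.3 to 26.9). Summed endothelial genes lay at 54.8 to 83.6 CPM in control and 31.7 to 45.2 in hypoxia, smooth muscle genes at 1290 to 1550 and 1870 to 2190, and 0 of 3 erythroid genes had enough counts to be tested. In bulk RNA, fewer cells of a type and less RNA per cell cannot be told apart, and the part of these shifts in the results on pseudogenes was not tested.

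Summed, the 258 pseudogenes made up a larger share of the hypoxic libraries than of the control libraries, and a smaller one with rSRGN than in hypoxia alone. The share was 0.329%, 0.326% and 0.324% in the control libraries. In hypoxia it was 0.564%, 0.556% and 0.559%, and in hypoxia + rSRGN 0.461%, 0.463% and 0.469%. The groups did not overlap, and the spread within each was small beside the gaps between them (SD 0.00249, 0.00386 and 0.00372 percentage points, n = 3 each). The rule chose the members by their counts in these same libraries, so the shares of the members are a description with no test. Without Gm10095, whose counts sat in single libraries, the SD in hypoxia was 0.0122 percentage points and the libraries had 0.537%, 0.556% and 0.559%, still above the other groups. The 201 parents moved in the same order, from 5.19% to 5.30% of the counts in control to 9.04% to 9.76% in hypoxia and 8.05% to 8.33% in hypoxia + rSRGN.

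**Figure D1:**
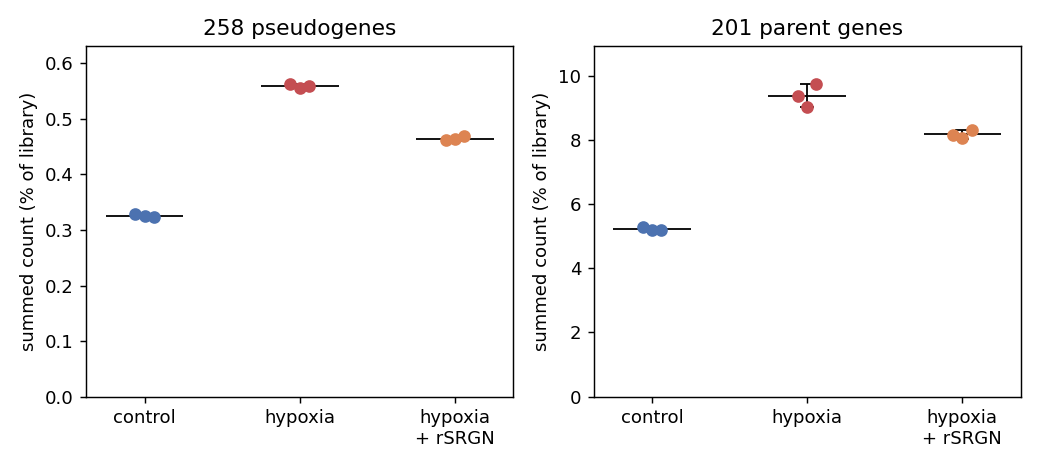
Summed count of the 258 pseudogenes (left) and of their 201 parent genes (right) as a percent of all counts of each library, by group. Points are libraries, horizontal lines group means and bars 1 SD (n = 3). In both panels the hypoxia libraries are the highest, the hypoxia + rSRGN libraries lie between and the control libraries are the lowest.

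The first comparison, hypoxia against control, asks which copies changed with 6 h of oxygen, glucose and serum deprivation. More of the pseudogenes rose than fell. A gene was called where the edgeR quasi-likelihood test over all 16762 genes gave an adjusted p under 0.05 and the change reached 1.5-fold. All 258 passed the filter on low counts, and 152 were called higher (58.9%) and 27 lower (10.5%), with 79 not called. Over all genes tested, 26.4% were called higher and 25.1% lower, 51.6% in all. The median log2 fold change was 0.85 over the pseudogenes and 0.05 over all genes. Some members may have reached the summed count through a single group: 58 had under 150 counts in a group, 41 of them in control. Among the other 200, 112 were called higher and 17 lower, and the median was 0.75.

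The 10 most counted members held 30.1% of the counts of the whole set, and 7 of them were called higher in hypoxia. Gm9794, the Rpl23 copy with the stop codon, lay at 135, 113 and 127 CPM in the control libraries, at 303, 280 and 299 in hypoxia and at 250, 251 and 245 in hypoxia + rSRGN. Every hypoxic library was above every control library, and the log2 fold change of hypoxia against control was 1.23 (SE 0.0745, edgeR adjusted p = 1.69e-12). Rps12-ps3, a copy of the small-subunit protein gene Rps12, rose the most of the 10, from 39.6, 45.8 and 42.5 CPM to 154, 169 and 173 (log2 fold change 1.95, SE 0.0768). It matched Rps12 without a mismatch, so its count cannot be separated from that of the parent by sequence within the copy.
Rps10-ps2, a copy of Rps10, went from 89.2, 94.5 and 87.0 CPM to 232, 206 and 233, with no overlap (log2 fold change 1.31). Its CPM was 2385% of that of Rps10, the highest ratio to a parent in the set. Over the copies with a measured parent the median was 4.31%, and 9 had more CPM than the parent, so the deposited counts do not always place the larger number on the coding gene. Rpl14-ps1 (log2 fold change 1.52), Rpl3-ps1 (0.85), Gm6136 of Rpl6 (1.23) and Tpt1-ps3 (1.27) were the other 4 called higher, the last a copy of Tpt1, which encodes the translationally controlled tumor protein.
Gm13394, the Gapdh copy, was the exception at the top, with 272, 329 and 317 CPM in control and 208, 246 and 187 in hypoxia. The fall of 0.52 on the log2 scale (SE 0.0904, edgeR adjusted p = 2.59e-05) stayed below the fold change limit, although it passed that limit without control replicate 1 (-0.62) or without hypoxia replicate 2 (-0.63). Vcp-rs, a copy of the gene of the ATPase that draws ubiquitinated proteins out of complexes, had a log2 fold change of -0.51 and Eif4a-ps4, a copy of the helicase gene Eif4a1 of translation initiation, one of 0.31, and neither was called.

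**Figure D2:**
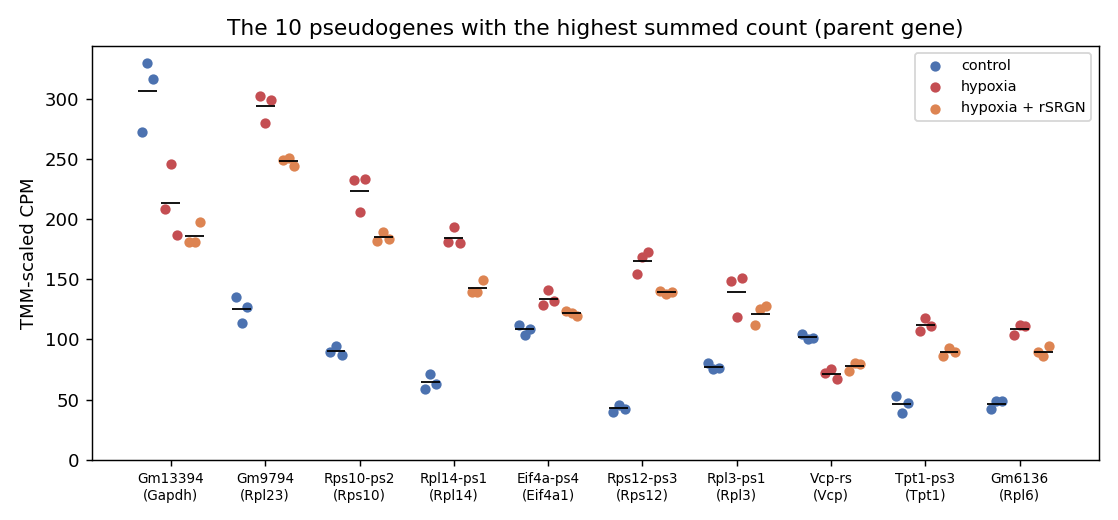
TMM-scaled CPM of the 10 pseudogenes with the highest summed count in each library, with the parent gene in brackets. Points are libraries and lines group means. Of the 10, Gm13394 and Vcp-rs lie lower in hypoxia than in control, and the other 8 lie higher.

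Grouped by the parent gene, the pseudogenes of ribosomal proteins carried most of the rises. The counts of each class stand beside 26.4% called higher and 25.1% lower over all genes tested. Of 81 such copies, 79 were called higher and 0 lower, with a median log2 fold change of 1.40, and their 52 parents were all called higher (median 1.35). The 2 copies not called were Gm14276 of Rps2 (0.25, SE 0.265) and Gm14303 of Rps29 (0.54), which are named after their values were seen. Together the 81 copies took 0.100% to 0.103% of the control libraries, 0.267% to 0.294% of the hypoxia libraries and 0.224% to 0.226% of the hypoxia + rSRGN libraries. Examples were Gm17971 of Rps2 (2.51), Gm13192 of Rps28 (2.44) and Gm9493 of Rps7 (2.34).
All 7 copies of chaperone genes were called higher (median 0.99), among them Gm15459 of Hspa8 (1.24), the constitutive HSP70, and Hspd1-ps3 of the mitochondrial chaperonin gene Hspd1 (0.99). Of 9 copies of translation factor genes 4 were called higher, and of 12 copies each of chromatin genes and of RNA-binding protein genes 7 and 6 were, with 0 lower in these 3 classes. The 7 chromatin copies include Gm12455, whose parent is uncertain and which had 7 control counts. Among 5 copies of cytoskeletal genes 3 were called higher, including both copies of Actg1 (1.25 and 1.23), and among 7 copies of ubiquitin and proteasome genes 1 was.
The copies of respiratory chain and ATP synthase genes went the other way. Of 11, 9 were called lower and 0 higher, with a median of -1.11, and all 10 parents were called lower (median -1.23). Examples were Gm16418 of the complex III gene Uqcr11 (-1.94), Ndufab1-ps of the complex I gene Ndufab1 (-1.60) and Gm10039 of the ATP synthase gene Atp5g1 (-1.25). The 2 that were not called were Ndufa12-ps (-0.04) and Gm14539 of Atp5md (-0.58).
The 9 copies of glycolytic genes had no common direction: 2 were called higher (22.2%), 2 lower (22.2%) and 5 were not called. These shares lie near those over all genes tested. The remaining 103 copies with a parent outside these classes had 42 called higher and 16 lower, and the 1 copy of a gene of the Slc25 family of mitochondrial carriers, Gm5529 of Slc25a5, was not called. The ferritin list held 0 members, since the 2 copies of ferritin light chain aligned best to Ftl1-ps1, which the table types as protein-coding and the list did not name.

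**Figure D3:**
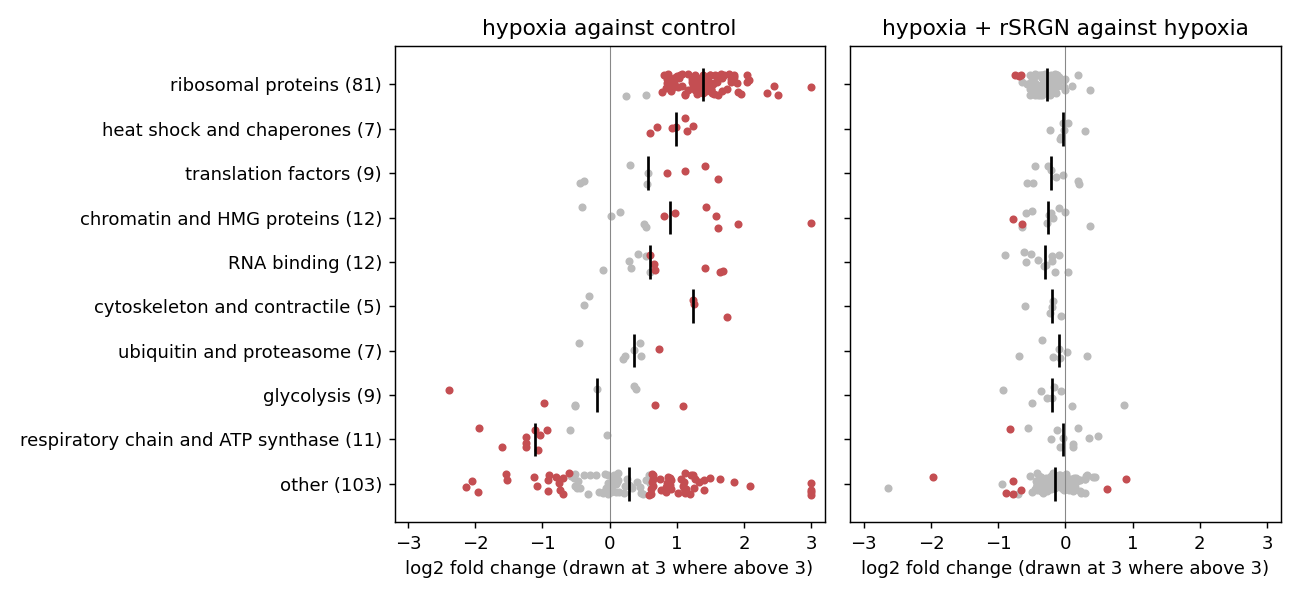
Log2 fold change of each pseudogene by class of its parent gene (number of pseudogenes in brackets), for hypoxia against control (left) and hypoxia + rSRGN against hypoxia (right). Red points were called, grey points were not, black lines are class medians, and values above 3 are drawn at 3. The single carrier copy and the pseudogene without a parent are not drawn. On the left the ribosomal protein copies lie to the right of 0 and the respiratory chain copies to the left, and on the right 13 points in all are red.

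Among the 5 largest falls of called members were copies of 4 genes, Gapdh, Hadhb, Mpc1 and Uqcr11. Gm2606, the Gapdh copy with the substitution C583T, had 3.86, 16 and 3.82 CPM in control and 1.5, 2.20 and 0.811 in hypoxia. The groups did not overlap, but control replicate 2 stood far above the other control libraries. The log2 fold change of -2.39 became -1.37 without that library. Gm2606 reached the summed count largely through the control libraries, where it is high, so its fall is a description with no test. Gm2606 lies in an intron of Pdzd2 on the opposite strand, and Pdzd2 fell by 2.10 on the log2 scale, whereas Gapdh had -0.49. The counts were made with no strand option, and the part of Pdzd2 in the counts of Gm2606 was not tested.
Hadhb-ps is a copy of the gene of a subunit of the mitochondrial trifunctional protein, which breaks down long-chain fatty acids. It had 67.8, 65.7 and 66.2 CPM in control against 16.2, 13.1 and 16.3 in hypoxia, with no overlap. Its log2 fold change of -2.13 (SE 0.0984) stood beside -2.09 for Hadhb.
Mpc1-ps, a copy of the gene of the mitochondrial pyruvate carrier, went from 95.4, 92.8 and 91.2 CPM to 22.1, 24.3 and 25.4 (log2 fold change -1.96). Its parent Mpc1 fell by 1.27. Gm16418, the Uqcr11 copy, fell by 1.94 beside a log2 fold change of -1.68 for Uqcr11.

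The 6 largest fitted rises in hypoxia belonged to members with between 1 and 14 counts over the 3 control libraries. They reached the summed count through the hypoxic libraries, so the choice of members fixed the direction of these rises, and the values are a description with no test. The fold changes rest on almost no control counts, so ratios of counts per scaled library size are given with exact 95% intervals, which cover counting error only.
Gm29257 had 1, 0 and 0 counts in control, 667, 390 and 451 in hypoxia and 497, 533 and 409 in hypoxia + rSRGN. The ratio to control was 1850 in hypoxia (interval 331 to 72900) and 1660 in hypoxia + rSRGN (297 to 65600). The copy lies in an intron of Mdm4 on the opposite strand, and Mdm4 was not called (edgeR adjusted p = 0.997). Pik3c2b, which lies 19.2 kb downstream on the strand of the copy, fell by 3.89.
Gm5566, the Nme2 copy, had 0, 1 and 0 counts in control, 67, 59 and 40 in hypoxia and 82, 146 and 105 in hypoxia + rSRGN, a ratio to control of 203 (36 to 8070) and 384 (68.4 to 15200). Nme2 was not called (log2 fold change 0.33, SE 0.232), and had few counts itself, with a mean of 3.52 CPM in control and 4.43 in hypoxia. The copy lies on the strand of Hsph1, the gene of a large heat shock protein that lies 24.4 kb downstream of it, and Hsph1 rose by 3.96 on the log2 scale. Gm20005, a lincRNA 13 kb away on the other strand, had 0 counts in control, 332 in hypoxia and 421 in hypoxia + rSRGN.
Phgdh-ps1, a copy of the gene of the first enzyme of serine synthesis, had 0, 0 and 2 counts in control and 76, 80 and 66 in hypoxia, a ratio of 136 (37.2 to 1130). Phgdh rose by 1.28 on the log2 scale, and Il16, whose intron holds the copy on the same strand, by 1.52.
Gm12455 had 7, 0 and 0 counts in control against 166, 81 and 181 in hypoxia, a ratio of 74.8 (36.0 to 187). Its best match, Hmgb1, was only 70.2% identical, the lowest of the set, so its parent is uncertain. Melk lies 18.2 kb upstream of it on the same strand and rose by 0.75. Gm6611, in an intron of Lrch3, had 8, 1 and 5 counts in control against 124, 158 and 129 in hypoxia, a ratio of 35.9 (21.2 to 66.3), while Lrch3 fell by 0.64.
Gm10095 differs from these 5, since its counts sat in single libraries. It had 1, 1 and 4 counts in control, 4882, 2 and 6 in hypoxia and 1, 836 and 11 in hypoxia + rSRGN. The fitted log2 fold change in hypoxia was 9.80 (SE 2.29), but without hypoxia replicate 1 it was 1.27 with an edgeR adjusted p of 0.743, and DESeq2 gave no adjusted p. Its best alignment lay outside the coding sequence of BC004004 with a score of 849, and Rpl21 scored 845, so its parent is uncertain too. Without Gm10095 the share of all members in hypoxia replicate 1 was 0.537% in place of 0.564%.
The counts were made with no strand option, so reads from either strand can count on a copy. The part of neighbouring transcription in these 6 members was not tested.

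**Figure D4:**
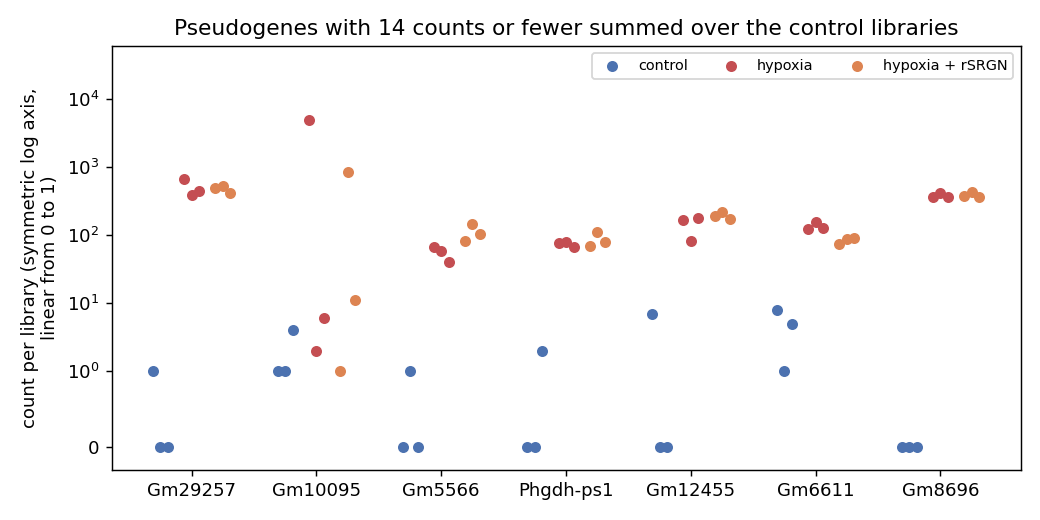
Deposited counts in each library of the 6 members with 14 or fewer control counts, and of Gm8696, which had no control count and is not a member. Points are libraries, and the vertical axis is a symmetric log scale. For every gene but Gm10095 all hypoxic libraries lie far above the control libraries, whereas Gm10095 is high in 1 hypoxia and 1 hypoxia + rSRGN library.

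The next comparison asks whether a copy changed apart from the gene it was copied from. In hypoxia against control most were not called apart from it. For 255 pairs of member and parent there were enough counts. Their log2 fold changes had a Spearman correlation of 0.842 and a Pearson correlation of 0.577 across pairs. The pairs share libraries, sequence and sometimes a parent. A count on a copy can hold fragments of the parent, so an unchanged ratio cannot show that the copy did not change apart. Both genes were called higher in 129 pairs and both lower in 21, and 0 pairs were called in opposite directions. When the ratio of copy to parent was tested itself (limma on the log2 CPM difference over 689 pairs of pseudogene and parent, adjusted p below 0.05 and at least 1.5-fold), 11 members were called higher and 5 lower than the parent. Over all 689 pairs 8.71% were called higher and 4.5% lower, 13.2% in all. The median change of the ratio was 0.05 on the log2 scale over the members, and for 218 of 255 it was under 1.5-fold in either direction. With at least 10 counts required in every library for both genes, 9 members were called in place of 16, 5 higher and 4 lower. When 1 library was left out, between 9 and 12 members were called higher and between 2 and 6 lower. The 11 called higher include 4 members with 7 or fewer control counts, which entered the set through the hypoxic libraries.

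**Figure D5:**
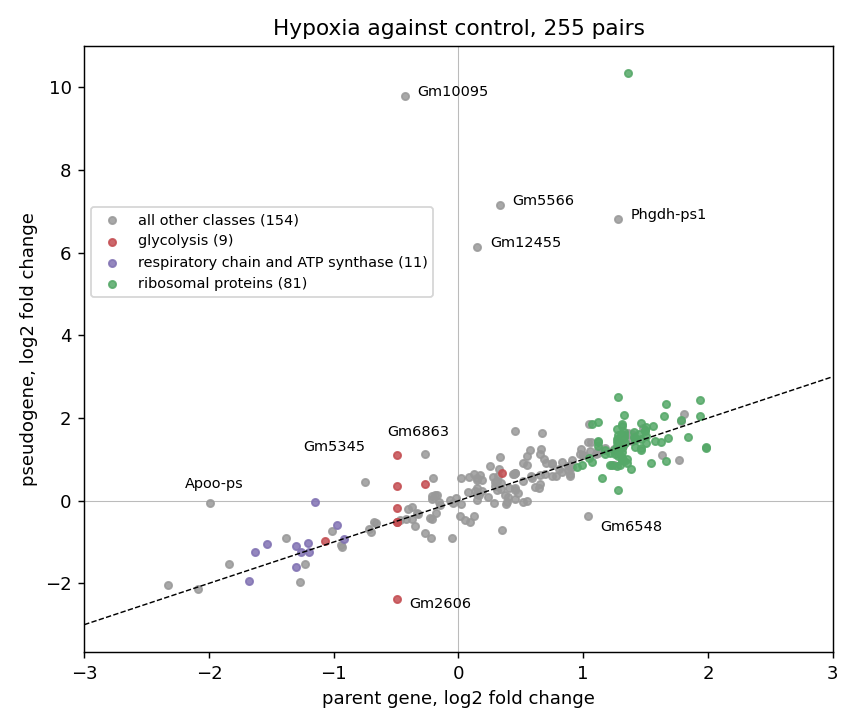
Log2 fold change of each pseudogene (vertical) against that of its parent gene (horizontal) in hypoxia against control, for 255 pairs, coloured by class of the parent. The dashed line marks equal change. Most points lie along the line, with the ribosomal protein copies at the upper right, the respiratory chain copies at the lower left, and the named copies away from it.

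Among the 3 largest rises of the ratio were 5.40 on the log2 scale for Gm12455 over its uncertain parent and 4.44 for Gm5566 over Nme2 (prior count of 2). Both members had few control counts and entered the set through the hypoxic libraries, so these are descriptions with no test. In the 3 largest called falls of the ratio the parent had a positive log2 fold change, while Gm2606 over Gapdh had -1.57 and was not called (limma adjusted p = 0.0914). Gm6548 had 11.1, 11.3 and 10.9 CPM in control and 8.86, 8.55 and 8.17 in hypoxia, while Eef1a1, the gene of the elongation factor that brings aminoacyl-tRNA to the ribosome, rose by 1.03. The groups of the copy did not overlap, and its ratio fell by 1.41 (SE 0.16, limma adjusted p = 0.000255). The other copy of Eef1a1 among the members, Gm13456, rose by 1.43.
Gm14276 showed 2.83, 2.30 and 2.51 CPM in control and 4.03, 2.37 and 2.66 in hypoxia, which overlapped, while its parent Rps2 rose by 1.28, and the ratio fell by 1.07 (limma adjusted p = 0.017). Gm18588, of the lipid-transfer protein gene Osbpl9, had 8.04, 9.08 and 10.3 CPM against 5.75, 5.66 and 5.44, and its ratio fell by 1.03 (limma adjusted p = 0.0448).
The next 2 copies are named after their values were seen. Gm6863 rose from 28.6, 23.9 and 27.8 CPM to 49.6, 62.8 and 62.1, while Naca, the gene of a subunit that binds nascent chains at the ribosome, had a log2 fold change of -0.27. The copy differs from Naca by a single aligned substitution, G558A, and its ratio rose by 1.38 (limma adjusted p = 0.000602). Apoo-ps had 2.70, 3.52 and 4.35 CPM in control and 3.17, 3.06 and 4 in hypoxia, which overlapped, while Apoo, the gene of a protein of the mitochondrial cristae junctions, fell by 1.99.

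Copies of the same parent did not always move together. The 7 parents with 4 or more members were looked at after values were seen, and copies of a parent share sequence, so they are not independent. The 6 copies of Rpl21 all rose, with log2 fold changes from 1.00 to 1.81 beside 1.31 for Rpl21, and the 4 of Rpl23a and the 4 of Rpl6 rose too. The 5 copies of Rps2 ranged from 0.25 for Gm14276, which was not called, to 2.51 for Gm17971, and the 4 copies of Hnrnpa3, the gene of an RNA-binding protein, from 0.30 to 1.69. The 6 copies of Gapdh spread widely around the -0.49 of the parent, with Gm2606 at -2.39, Gm13394 and Gm12033 at -0.52, Gm5559 at -0.19, Gm7336 at 0.36 and Gm5345 at 1.10. Gm5345 had 1.53, 1.63 and 1.84 CPM in control and 3.06, 4.56 and 3.07 in hypoxia, without overlap. It was called higher, and its ratio to Gapdh rose by 1.53. Gm5345 reached the summed count through the hypoxic libraries, so both rises are a description with no test. Of the members matched to Hmgb1, the 4 other than Gm12455, whose parent is uncertain, lay between 0.02 and 0.55.

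Adding rSRGN during hypoxia asks whether the protein altered the response. Compared with hypoxia alone, 2 pseudogenes were called higher (0.775%) and 11 lower (4.26%) by the same edgeR test, while 2.27% of all genes were called higher and 0.859% lower, 3.13% in all. The median log2 fold change was -0.21 over the members and -0.03 over all genes, and 210 of the 258 values were below 0. The count of 13 depended on single libraries: it was 24 without hypoxia replicate 1, 20 without hypoxia replicate 3, and 7 without hypoxia + rSRGN replicate 1 and also 7 without replicate 2 of that group. The parents had 0 calls among 199 by the same test, with a median of -0.16.
Among the ribosomal protein copies 3 of 81 were called lower and 0 higher, and 78 of the 81 values were below 0 (median -0.28). Their 52 parents all had values below 0 (median -0.25), although 0 were called. The chaperone copies (median -0.04) and the respiratory chain copies (-0.03) lay near 0, with 1 call among these 18.

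Apoo-ps had the largest called fall in this comparison, while Gm10095, high in single libraries, had -2.64 and was not called (edgeR adjusted p = 0.136). It had 3.17, 3.06 and 4 CPM in hypoxia and 0.775, 1.30 and 0.475 in hypoxia + rSRGN, with no overlap. The log2 fold change was -1.98 (SE 0.333), and lay between -1.68 and -2.45 when 1 library was left out. Apoo-ps reached the summed count through the control and hypoxia libraries, where it is high, so its fall is a description with no test. Apoo had 0.26 and was not called. The copy aligned to Apoo without a mismatch.
The other 4 of the 5 largest called falls were smaller. Gm12854, a copy of the calcium-binding protein gene S100a11, had 7.63, 17.7 and 8.86 CPM in hypoxia and 6.73, 5.25 and 6.6 with rSRGN (log2 fold change -0.88), but -0.41 without hypoxia replicate 2 (adjusted p = 0.128) and -0.77 without hypoxia + rSRGN replicate 2 (adjusted p = 0.0779), and was not called in either. Ndufa12-ps had 3.92, 10.9 and 5.21 CPM against 3.28, 3.52 and 4.49, which overlapped, and its -0.82 (edgeR adjusted p = 0.0479) became -0.27 without hypoxia replicate 2. The call was lost in 7 of the 9 fits that left out 1 library, and with RLE size factors (adjusted p = 0.0567).
Hmgb1-ps2, a copy of the gene of a DNA-bending chromatin protein, had 8.06, 10.4 and 6.66 CPM against 4.65, 5.11 and 4.81, with no overlap. Its log2 fold change was -0.78 (edgeR adjusted p = 0.00768), lay between -0.60 and -0.92 when 1 library was left out, and passed the test each time. Gm10074 of Lsm5 had 5.37, 2.83 and 5.21 CPM against 2.50, 2.46 and 2.85, which overlapped, and its -0.78 (edgeR adjusted p = 0.041) did not pass when any 1 library but hypoxia replicate 2 was left out.
The 2 rises were those of Gm5566 and Gm6206. Gm5566 went from 3.6, 3.41 and 2.32 CPM to 4.89, 7.03 and 5.55 (log2 fold change 0.91, SE 0.254). It had 1 count in control, 166 in hypoxia and 333 in hypoxia + rSRGN, and so entered the set largely through the group where it is high, which makes its rise a description with no test. Gm6206, a copy of the ubiquitin ligase gene Cop1, went from 5.96, 10.5 and 11.1 to 11.9, 15.4 and 14.8 CPM (0.62, edgeR adjusted p = 0.0307). Neither pair of groups overlapped. Gm5566 was no longer called without hypoxia replicate 3 (0.74) or hypoxia + rSRGN replicate 2 (0.75), nor was Gm6206 without hypoxia replicate 1 (0.38) or hypoxia + rSRGN replicates 2 (0.55) or 3 (0.58).
In the ratio of copy to parent, 0 of the 255 members and 0 of all 689 pairs (0.0%) were called between hypoxia + rSRGN and hypoxia by limma, with 7 members at an unadjusted p under 0.05. The lowest adjusted p among the members was 0.205, that of Apoo-ps (ratio change -2.25 on the log2 scale) and also of Gm5566. The values of both copies are a description as above.

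Hypoxia + rSRGN against control shares its libraries with the comparisons above, so its values are set beside them only. It had 129 pseudogenes called higher and 32 lower, with 24.1% and 24.7% over all genes tested (48.8% in all), and a median of 0.60. In the ratio of copy to parent 10 members were called higher and 6 lower in this comparison by limma, beside 8.56% and 4.93% (13.5% in all) of the 689 pairs. Of the 81 ribosomal protein copies 75 were called higher, of the 7 chaperone copies 6, and all 11 respiratory chain copies were called lower. For Gm9794 the log2 fold change was 0.99 beside 1.23 in hypoxia, for Rps12-ps3 1.71 beside 1.95 and for Hadhb-ps -1.84 beside -2.13.

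The threshold on the summed count fell inside a dense range of values. Just inside it were Gm6493 (453 counts, of which 165 in control, 117 in hypoxia and 171 in hypoxia + rSRGN), Rbm3-ps (454: 140, 174 and 140) and Gm5854 (455: 74, 218 and 163). Just outside were Gm5425 (449: 90, 229 and 130), Gm10269 (449: 101, 170 and 178) and Gm10819 (447: 199, 119 and 129). A threshold of 300 would have taken in 319 pseudogenes and one of 900 would have left 155.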

How the data were processed

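The authors deposited 1 table of whole-number counts per gene and library, made with featureCounts 2.0.1 per its header, on read pairs over exons of GENCODE mouse release 25 (GRCm38/mm10), with no strand option. Without an option for them, reads on several genes or positions are left out, which can remove fragments shared by a copy and its parent. How many were removed was not measured. The submitters' processing notes name HISAT2 with no version. All 9 count columns were used and 0 were left out.

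Poly(A)-enriched RNA of 9 libraries, 3 per group, was compared with edgeR 4.0.16 in R 4.3.3 (filterByExpr, TMM scaling, quasi-likelihood test, Benjamini-Hochberg adjustment over all genes, all groups in 1 fit), and a call needed both a change of 1.5-fold or more and an adjusted p under 0.05. Ratios of copy to parent were tested with limma 3.58.1 on differences of log2 CPM with a prior count of 2. DESeq2 1.42.0 was an alternative. Scripts were tested on simulated data. Parents were found with blastn 2.17.0 (word size 16, at least 50% of the copy aligned) against GENCODE release 21 transcripts, another release than that of the counts. Figures used matplotlib 3.10.9 under Python 3.11.15.

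The members and lists were chosen with earlier results of these data known. Named were the 10 most counted members, the 5 largest called rises and falls in hypoxia against control and in hypoxia + rSRGN against hypoxia, the 3 largest called ratio changes in each direction, and 3 genes on each side of the threshold, of which some results are not reported here. The low-count rule of 150 counts in a group covers 58 members, given as counts and by their most unequal sums. Intervals (95%, exact) and the floor of 3 counts over a group cover counting error only. Replicate numbers did not pair the libraries (correlations of same-numbered deviations from -0.0374 to 0.0215).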

Additional observations from a re-analysis of the deposited data

Results flagged for a closer look

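Gm8696, a processed pseudogene that the condition on control counts kept out of the set, had a signal in the hypoxic libraries against 0 counts in every control library. It had 367, 414 and 359 counts in hypoxia, 1140 in all, and 370, 430 and 366 in hypoxia + rSRGN, 1166 in all. Against a floor of 3 counts over the control group, this was at least 465-fold higher in hypoxia and at least 448-fold higher in hypoxia + rSRGN. The gene lies at chr17:34954328-34954712 (minus strand, GRCm38), 1.72 kb downstream of the heat shock gene Hspa1b on the same strand, which rose by 9.30 on the log2 scale in hypoxia against control, and its part in the counts of Gm8696 was not tested.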

How the results depend on the processing

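The 179 members called in hypoxia against control and the 161 called in hypoxia + rSRGN against control stayed within 1.5 times of these counts in every alternative run. The 13 called in hypoxia + rSRGN against hypoxia became 21 with no filter beyond 1 count, 24 with an unadjusted p, 45 with no fold change limit, and 7 to 24 when 1 library was left out. The 16 called ratios in hypoxia against control became 9 with at least 10 counts in every library and 11 to 15 when 1 library was left out. The number of members was 155 with a summed count of at least 900. With the replicate number as a block, 180, 12 and 160 members were called in the 3 comparisons and 14 and 0 in the ratios, but the numbers do not pair the libraries. Of 390 alternative values for named genes, 361 kept their direction and side of the threshold, 26 no longer passed, 2 newly passed and 1 reversed. The last was Gm14276 in hypoxia against control, not called in any of these, at -0.019 without hypoxia replicate 1 and up to 0.39 without another library, and the cause was not tested. Thinning to the smallest library, the count limit of 150 in every group and the restriction to intergenic copies were chosen after seeing the data. With 3 libraries a group, members of few counts have the widest errors.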

Other observations

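Outside the set, 460 other processed pseudogenes had enough counts to be tested. In hypoxia against control 201 of them (43.7%) were called higher and 40 (8.7%) lower by edgeR, with a median log2 fold change of 0.77. Over all genes tested the shares were 26.4% and 25.1%. Other processed pseudogenes took 0.0496% of the control libraries, 0.0832% of the hypoxia libraries and 0.0724% of the hypoxia + rSRGN libraries on average (SD 0.000993, 0.000854 and 0.000681 percentage points, n = 3 each).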
